A study of Mus musculus with 6 samples.

Results

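Polyamine metabolism genes were followed in hind limb skeletal muscle by every array probe set annotated to Smox, Odc1, Srm, Sms, Sat1, Paox, Azin1, Oaz1 or Oaz2. These gave values for 8 of the 9 listed genes, of 18193 genes with a symbol on the array. They had 18 of the 45101 probe sets, of which 14 carried 1 gene symbol. The other 4 also listed a pseudogene, 3 for Sms and 1 for Oaz1, and Paox was not analysed here. The pathway was chosen by the low Smox signal of deficient muscle in this same comparison, so the values of Smox are a description without a test, and its other genes were added for their known roles. The muscle came from 3 mice deficient in the laminin alpha 2 chain and 3 wild type mice, all 4 weeks old, with each animal's hind limb muscles on an Affymetrix array of their own. Laminin alpha 2 is a chain of the main laminin of the muscle fibre's basement membrane. The labels name neither the allele nor the strain, and say nothing of the sex of the animals.

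The polyamines putrescine, spermidine and spermine are small positively charged molecules that bind nucleic acids and are needed for growth and translation. Ornithine decarboxylase (Odc1) makes putrescine, spermidine synthase (Srm) and spermine synthase (Sms) lengthen it, and the acetyltransferase Sat1 with the oxidases Paox and Smox turn spermine and spermidine back, with hydrogen peroxide as a by-product of oxidation. Antizymes (Oaz1, Oaz2) send ornithine decarboxylase to the proteasome, and the antizyme inhibitor (Azin1), a relative of ornithine decarboxylase without its activity, binds them away from it. In mouse skeletal muscle Smox is known as a gene with a high basal level that is repressed in several settings of atrophy.

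Smox, at chromosome 2, 131491858 to 131525183, and Sat1, at chromosome X, 155213126 to 155216449 (GRCm38.p6), were the genes of the set with the largest differences among probe sets of clear signal, in opposite directions. Their RefSeq promoter windows, 250 bases before and 50 from the start site, are shown for that reason, 5′ to 3′, with matches to CANNTG (the E-box, bound by myogenic and other helix-loop-helix factors) and GGGCGG (the GC box) on either strand in capitals. The Smox window lies on the + strand at chr2:131491612-131491911 and the Sat1 window on the - strand at chrX:155216400-155216699.
Smox: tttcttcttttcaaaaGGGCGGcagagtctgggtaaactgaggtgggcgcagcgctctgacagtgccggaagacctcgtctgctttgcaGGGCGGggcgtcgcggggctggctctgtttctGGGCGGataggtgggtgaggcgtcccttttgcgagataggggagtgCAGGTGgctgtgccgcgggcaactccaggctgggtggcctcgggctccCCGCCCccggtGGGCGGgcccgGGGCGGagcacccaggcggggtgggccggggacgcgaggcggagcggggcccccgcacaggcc
Sat1: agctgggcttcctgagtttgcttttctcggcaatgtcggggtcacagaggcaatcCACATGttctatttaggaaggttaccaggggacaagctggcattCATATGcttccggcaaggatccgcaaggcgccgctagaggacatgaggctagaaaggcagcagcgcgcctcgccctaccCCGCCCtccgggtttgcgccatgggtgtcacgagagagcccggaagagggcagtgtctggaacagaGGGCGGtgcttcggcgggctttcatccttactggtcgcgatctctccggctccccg
The Smox window held 1 match to CANNTG and 6 to GGGCGG, and the Sat1 window 2 of each. At least 1 CANNTG was found in 72.3% and at least 1 GGGCGG in 35.7% of 32851 promoter windows of the same length. Neither window held the letters TATAAA (found in 13.6% of all windows), those of the CCAAT box (37.4%), the palindrome CACGTG (7.15%), which is itself a form of CANNTG, or the AP-1 element TGACTCA (5.2%). CG dinucleotides numbered 27 in the Smox and 21 in the Sat1 window, against a median of 7 over all windows. Of all windows, 84.5% held fewer than that of Smox and 75.2% fewer than that of Sat1.

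Lama2, the gene of the missing chain, checked the labels. It had signals of 82, 31.1 and 140.4 in the deficient libraries, against 428.7, 415.6 and 326.2 in the wild type libraries, so the groups did not overlap (limma adjusted p = 0.0266). Leaving out deficient replicate 1 (adjusted p = 0.0526), deficient replicate 2 (0.0633), wild type replicate 1 (0.109), wild type replicate 2 (0.112) or wild type replicate 3 (0.0594) ended that call. A prior without an intensity trend also ended it (0.0635). Array medians ran from 19.9 to 26 signal units in the deficient and 21.5 to 24.4 in the wild type libraries, and precision is limited by the number of arrays. All 6 markers of myofibres, such as Acta1 and Ckm, were bright in every library. Their summed signal was 53511.9 to 71688.7 in deficient and 74206.2 to 76149.5 in wild type muscle, without overlap. Y-linked transcripts were present in replicates 1 and 2 of both groups and near background in replicate 3 of both. Hair follicle markers summed to 26.5 to 37.9 in the deficient libraries, against 1699.2, 692.5 and 68.9 in wild type replicates 1, 2 and 3. The 5 over 3 prime ratio of the actin control, a measure of RNA quality, was 0.819, 0.51 and 0.573 in the deficient libraries and 1.15, 1.05 and 1.04 in the wild type libraries. The same ratio of 3 other controls overlapped between the groups, with Gapdh at 1.15, 0.886 and 1.01 in the deficient libraries and 0.961, 1.19 and 1.14 in the wild type libraries.

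The comparison asks how transcripts of this pathway differ between deficient and wild type muscle. The bright Smox probe set was far lower in deficient muscle and Sat1 was higher. Smox was not tested, and of the other genes only Sat1 passed the test. Of the 16 probe sets of the genes other than Smox, those that also list a pseudogene included, 15 were bright enough to be tested, and among them 1 rose, 0 fell and 14 did not pass. Over all 27026 probe sets tested, 1.41% passed in either direction, 0.596% higher and 0.814% lower. An unadjusted p under 0.05 was found for 4 of the 15, against 16.4% of all tested probe sets. These were Sat1 and, on the lower side, 3 probe sets that also list a pseudogene, 2 of Sms and 1 of Oaz1. The groups did not overlap in 1 of the 15 on the higher and 3 on the lower side, against 10.8% and 11.1% of all tested probe sets. The median log2 difference was -0.18 over the 15 and 0.03 over all tested probe sets. Counted over the 11 tested probe sets of 1 symbol alone, which leave out Sms, 1 had an unadjusted p under 0.05, 1 on each side did not overlap, and the median was -0.17. Each log2 difference is the deficient mean less the wild type mean of log2(signal + 16), where the added 16 makes changes of dim probe sets look smaller.

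**Figure D1:**
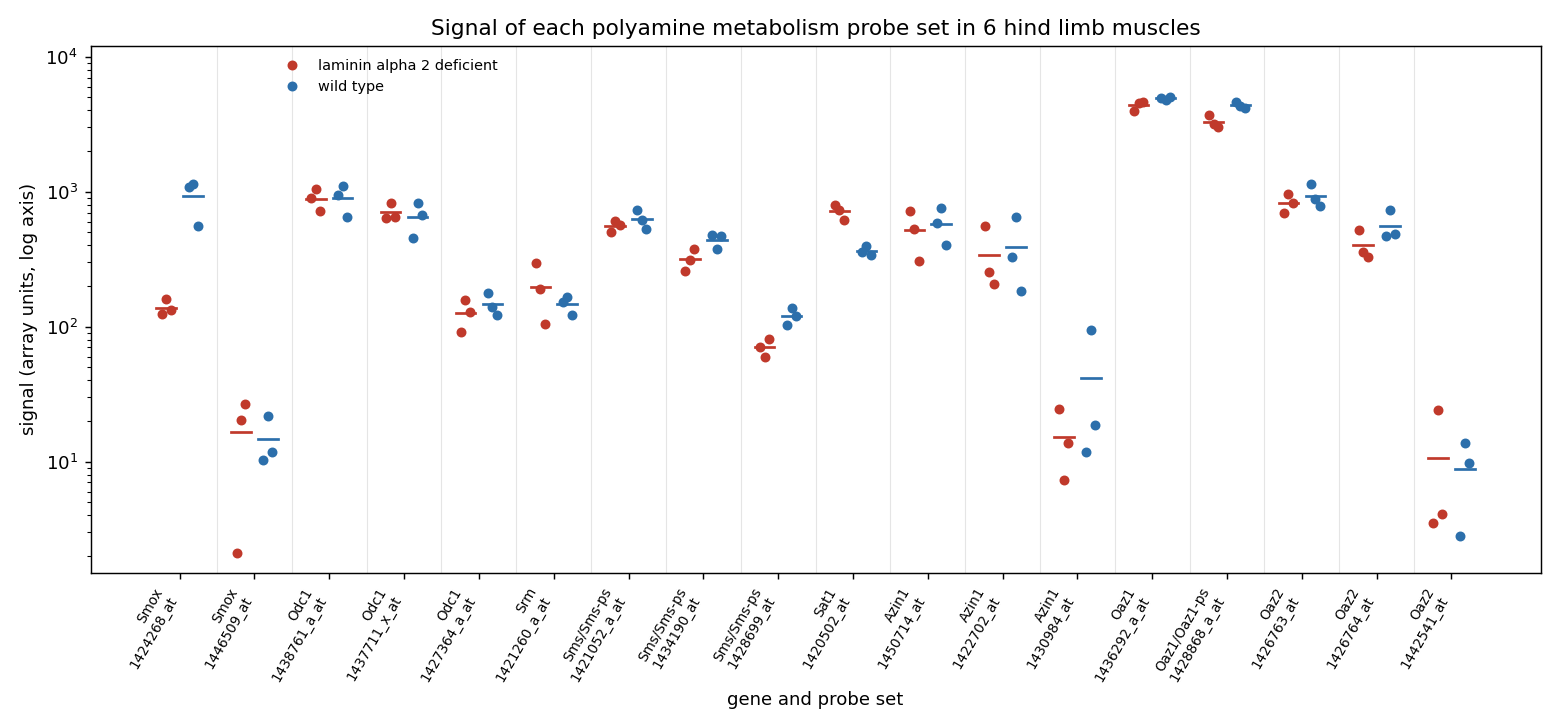
Signal (log axis) of each of the 18 polyamine probe sets, with red points for the 3 deficient and blue points for the 3 wild type libraries and a bar at each group's mean. The bright Smox probe set lies at 123.7 to 159.4 in deficient and 560.2 to 1132.9 in wild type muscle, and Sat1 at 620 to 794.7 in deficient and 340.1 to 395.6 in wild type muscle.

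Smox (Entrez gene 228608) encodes spermine oxidase, which turns spermine into spermidine. Its bright probe set had signals of 123.7, 159.4 and 132.2 in the deficient libraries, against 1088.7, 1132.9 and 560.2 in the wild type libraries. The deficient libraries lay close together and below all wild type libraries, of which replicate 3 was the lowest. The means were 138 ± 18.6 in deficient and 927 ± 319 in wild type muscle (SD, n = 3 each), a log2 difference of -2.55, or 5.86-fold lower on that scale. From the lowest, this was the 13th of 27026 differences. In whole muscle, fewer cells of a type and less RNA per cell cannot be told apart.

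The other Smox probe set was dim, with signals of 2.1, 20.3 and 26.9 in the deficient libraries, against 10.3, 21.8 and 11.7 in the wild type libraries. The groups overlapped. Its mean over all libraries was just above the limit of 15 signal units for testing, and its log2 difference of 0.01 came out as -0.28 with a pseudocount of 1. At this signal a difference of the size seen in the bright probe set could not be read, and where either probe set lies on the Smox transcripts was not analysed here.

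The Smox values drew the choice of the pathway, so splitting them or leaving libraries out describes them and tests nothing. The Smox difference was present in animals with and without Y-linked transcripts. Between the libraries with them it was -2.85 on the log2 scale (n = 2 each) and between the libraries without them -1.96 (n = 1 each). Wild type replicates 1 and 2, with the highest Smox signals, also had the highest hair follicle sums. With these left out, deficient muscle was lower than wild type replicate 3 by a log2 difference of -1.91. With each library left out in turn, the difference ran from -2.87 to -2.38. The myofibre sum and the actin ratio, given above, were also lower in every deficient library. The sum of 4 markers of regenerating or fetal fibres, such as Myh3 and Myog, was 1705.4, 4287.3 and 3453.8 in the deficient libraries, against 335, 453.7 and 125.3 in the wild type libraries, and none of the 4 was at 0. The part of these in the Smox difference was not tested. The 4 genes listed as brown adipocyte markers had lower means too, and of them Ucp1 and Cidea passed the test. Ucp1, the uncoupling protein gene that defines brown fat, had 43.8, 12.7 and 43.7 in the deficient libraries, against 1033.4, 356.7 and 1481.2 in the wild type libraries, and fell by limma (log2 difference -4.16, adjusted p = 0.0054). Cidea, a lipid droplet gene of brown fat, fell as well (-1.34, adjusted p = 0.0279). By limma, Cox8b (-0.44, adjusted p = 0.141, groups without overlap) and Elovl3 (-0.90, adjusted p = 0.309, groups overlapping) did not pass. The sum over the 4 markers, mostly signal of Cox8b, was 5190.7 to 6530.8 in deficient and 7948 to 9839.7 in wild type muscle. Cox8b alone averaged 5424 in deficient and 7333 in wild type muscle, so the sum says little of the other markers. Cox8b stayed bright in the deficient libraries, where Ucp1 was dim. Its signal, and so the sum, cannot be assigned to brown fat alone. None of the 4 was at 0, and the part of brown fat in the Smox difference was not tested. Sums of fibroblast, endothelial, white adipocyte and erythroid markers overlapped between the groups. Such sums mostly follow their brightest genes and can hide single markers. By limma, the fibroblast marker Pdgfra was higher in deficient muscle without overlap (0.60, adjusted p = 0.185). The white adipocyte marker Lep was lower with overlap (-1.23, adjusted p = 0.156). Neither passed, and the other measured markers of these types overlapped. The erythroid sum was nearly all Alas2.

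**Figure D2:**
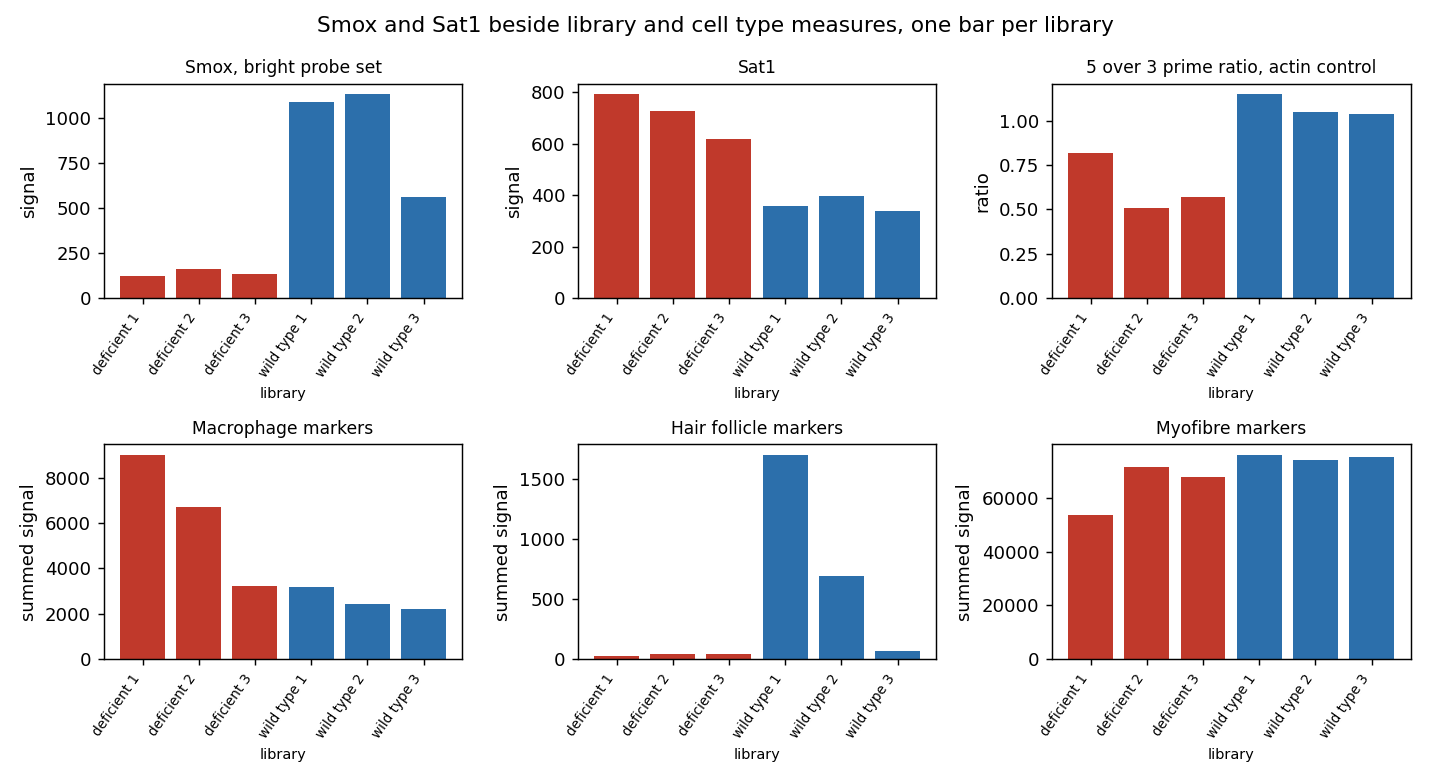
Bars give 1 value per library, deficient in red and wild type in blue, for the Smox and Sat1 signals, the actin 5 over 3 prime ratio and the summed signals of macrophage, hair follicle and myofibre markers. Smox is low in all 3 deficient libraries, while hair follicle markers are highest in wild type replicates 1 and 2 (1699.2 and 692.5).

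Sat1 encodes spermidine/spermine acetyltransferase, the first step of polyamine breakdown and export. Its probe set had signals of 794.7, 729.2 and 620 in the deficient libraries, against 357, 395.6 and 340.1 in the wild type libraries. Every deficient library was above every wild type library. The mean was 715 ± 88.3 in deficient and 364 ± 28.4 in wild type muscle (SD, n = 3 each), a log2 difference of 0.94 (SE 0.184, 95% interval 0.53 to 1.35), and Sat1 rose by limma (adjusted p = 0.0402). The difference was 0.99 between libraries with Y-linked transcripts and 0.84 between those without.

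The Sat1 call was close to the threshold. It was lost without deficient replicate 1 (adjusted p = 0.0755), deficient replicate 2 (0.15), wild type replicate 1 (0.16), wild type replicate 2 (0.135) and wild type replicate 3 (0.12), and held without deficient replicate 3 (0.0215). Median centring of the arrays also ended it (adjusted p = 0.0954), as did a prior without an intensity trend (0.0998). Over all alternatives the adjusted p ran from 0.0108 to 0.541 and the log2 difference from 0.86 to 1.03. Macrophage markers moved the same way. All 6 had a higher mean in deficient muscle, none was at 0, and their sum was 9010.4, 6708.4 and 3199.3 in the deficient and 3191.3, 2432.2 and 2194.1 in the wild type libraries. Of the 6, Cd14 and Mpeg1 did not overlap between the groups, and Mpeg1 had 1239.5, 865.4 and 525.5 in the deficient libraries, against 111.8, 117.5 and 92.7 in the wild type libraries. The part of macrophages, of regenerating fibres and of the lower actin ratio in the Sat1 difference was not tested.

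Of the synthesis genes, Odc1, on chromosome 12 at 17544808 to 17551502, encodes the first enzyme. Its brightest probe set had 891, 1044.9 and 723.2 in the deficient libraries, against 948.2, 1099.6 and 645.8 in the wild type libraries. The groups overlapped almost entirely, and the 95% interval of the log2 difference ran from -0.51 to 0.51 (adjusted p = 1.00). The other Odc1 probe sets differed by 0.15 and -0.21, with intervals of -0.37 to 0.67 and -0.75 to 0.33. All 3 intervals include 0 and differences in either direction.

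Srm, the spermidine synthase gene on chromosome 4 at 148591513 to 148594619, had 293.5, 188.8 and 105.1 in the deficient libraries, against 152.3, 165.1 and 121 in the wild type libraries. The deficient libraries held both the highest and the lowest value. The log2 difference was 0.29 (95% interval -0.41 to 1.00, adjusted p = 0.69), and it was -0.03 without deficient replicate 1. For Sms, the spermine synthase gene on chromosome X at 157443851 to 157492287, all 3 probe sets also list its pseudogene, so their signal cannot be assigned to the gene alone. The brightest differed by -0.14 (adjusted p = 0.748) and the middle one by -0.47 (0.301). The dimmest of the 3 had 71.1, 59.5 and 81.3 in the deficient libraries, against 102.7, 138 and 119 in the wild type libraries. Its groups did not overlap, but its log2 difference of -0.65 (95% interval -1.13 to -0.17) did not pass (adjusted p = 0.174).

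Among the regulators, Oaz1, the gene of antizyme 1 on chromosome 10 at 80826656 to 80829290, had 3945.7, 4513.9 and 4618.1 in the deficient libraries, against 4925.8, 4772.3 and 5052.5 in the wild type libraries. The groups did not overlap, yet the log2 difference was small, at -0.18 (95% interval -0.46 to 0.11, adjusted p = 0.536). The probe set shared by Oaz1 and its pseudogene had 3669.1, 3191.2 and 3006.5 in deficient and 4611.4, 4343.6 and 4181.2 in wild type muscle, also without overlap, with a log2 difference of -0.42 (95% interval -0.72 to -0.11, adjusted p = 0.176).

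Oaz2, on chromosome 9 at 65676548 to 65690300, encodes antizyme 2. Its probe sets of clear signal averaged 824 ± 129 in deficient and 932 ± 183 in wild type muscle (log2 difference -0.17, adjusted p = 0.721), and 402 ± 107 in deficient and 560 ± 146 in wild type muscle (-0.46, adjusted p = 0.381), with overlapping groups in each (SD, n = 3 each). A further, dim probe set read 3.5 to 24.2 in deficient and 2.8 to 13.7 in wild type muscle and was too dim to be tested. Azin1, the antizyme inhibitor gene on chromosome 15 at 38487430 to 38519294, varied more within groups than between them. Its brightest probe set had 717.4, 524.8 and 305.8 in the deficient libraries, against 585.9, 753.3 and 399.9 in the wild type libraries. Its 3 log2 differences were -0.20, -0.13 and -0.63, none with an adjusted p below 0.547.

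**Figure D3:**
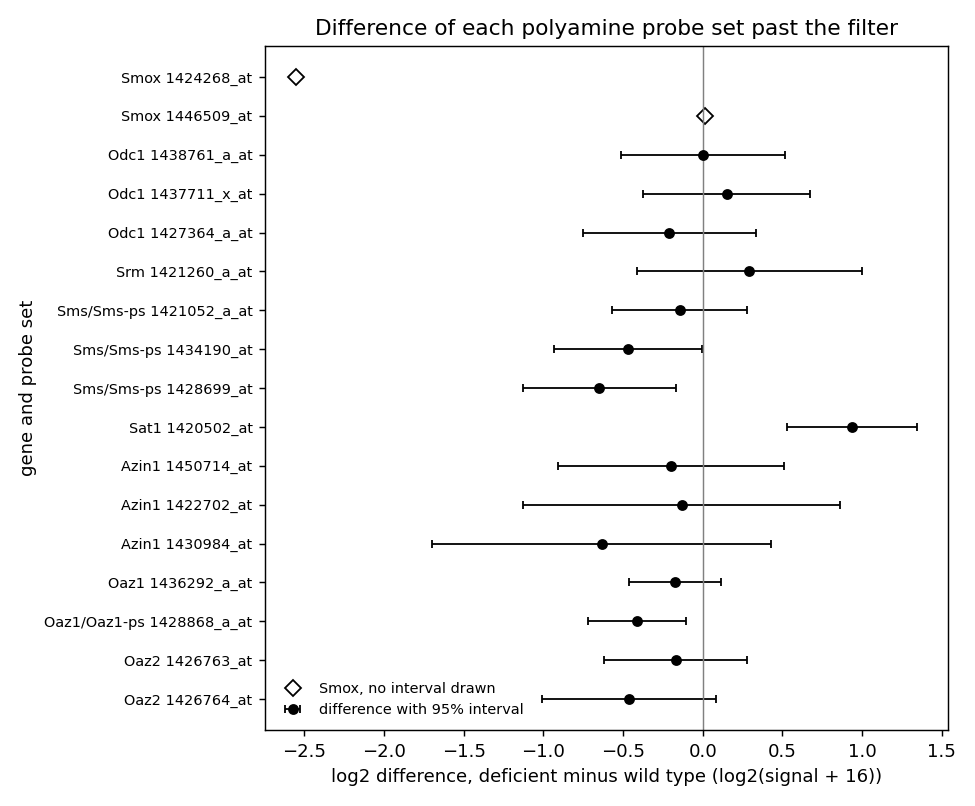
Log2 difference (deficient minus wild type) of each polyamine probe set past the filter, with the 95% interval of the limma fit as a bar, and open diamonds without an interval for Smox. Smox (-2.55) and Sat1 (0.94) stand at opposite ends, and the 3 intervals other than that of Sat1 that leave out 0 belong to probe sets that also list a pseudogene.

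Neighbouring steps were read from 37 further genes of polyamine synthesis and transport, the methionine cycle, the hypusine pathway and other amine oxidases. Of their 70 probe sets, 69 with 1 symbol, 55 from 31 genes were tested, and 1 rose, 1 fell and 53 did not pass. That compares with the 1.41% that passed over all tested probe sets. The groups did not overlap in 3 of the 55 on the higher and 11 on the lower side, against 10.8% and 11.1% of all tested probe sets. The 11 belong to Adi1, Mtap, Slc7a2, Apip, Dohh, Maob and Il4i1, some with more than 1 probe set. For Slc7a2 these differed by -1.07 (limma adjusted p = 0.107) and -0.49 (0.319). The brightest Slc7a2 probe set differed by -0.06 and the dimmest by -0.47, with overlapping groups. An unadjusted p under 0.05 was found for 14, against 16.4% of all. The median log2 difference was -0.02. Amd1, Amd2 and Mat2a had no annotated probe set and were not analysed here.

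The gene that rose was Atp13a3, which encodes an ATPase that carries polyamines into cells. Its bright probe set had 544.9, 515.8 and 649.3 in the deficient libraries, against 269.9, 222.1 and 262.3 in the wild type libraries. The groups lay far apart, with a log2 difference of 1.13 (SE 0.191, adjusted p = 0.0247). Another probe set differed by 0.98 without passing (adjusted p = 0.0882), also without overlap, and another, at 1.6 to 15.5 in deficient and 1.7 to 9.1 in wild type muscle, was too dim to be tested. The difference of the bright probe set was 1.07 between libraries with Y-linked transcripts and 1.26 between those without. The call was lost without deficient replicate 2 (adjusted p = 0.0926) or without 1 of wild type replicates 1 (0.0932), 2 (0.123) and 3 (0.0672). A prior without an intensity trend also ended it (0.0644).

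Each spermidine or spermine made releases methylthioadenosine, which the methionine salvage pathway recycles. A late step of it is carried out by acireductone dioxygenase, the product of Adi1, the gene that fell. The Adi1 probe set that passed had 193.4, 185.5 and 116.8 in the deficient libraries, against 450.4, 409.2 and 313.1 in the wild type libraries. Its log2 difference was -1.18 (SE 0.243, adjusted p = 0.0477). Its 2 other probe sets differed by -0.97 (adjusted p = 0.108) and -0.89 (0.134), and in all 3 the groups did not overlap. The call was lost without deficient replicate 1 (0.0555), deficient replicate 2 (0.128), wild type replicate 1 (0.182), wild type replicate 2 (0.18) and wild type replicate 3 (0.0722). With all libraries kept, median centring (0.0811), quantile normalization (0.051) and a pseudocount of 1 (0.0535) also ended it. So did no filter (0.0662) and a prior without an intensity trend (0.0976).

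Other genes of methionine salvage, named after their values were seen, were Apip, Mtap, Enoph1 and Mri1. Apip, which encodes the dehydratase of the pathway, had 253.1, 283 and 169.3 in the deficient libraries, against 393.1, 373.3 and 382.2 in the wild type libraries, without overlap (log2 difference -0.70, adjusted p = 0.157). Mtap, the gene of the phosphorylase that opens the pathway, differed by -0.54, -0.57, -0.48 and -0.50 in its 4 probe sets. The groups did not overlap in the first (adjusted p = 0.265) and the last of these (0.297), and none passed. Enoph1 and Mri1, which encode other enzymes of the same pathway, had overlapping groups in every probe set. Of the 10 tested probe sets of the methionine cycle list, 0 rose, 1 fell and 9 did not pass, with a median log2 difference of -0.25. Mtap was not on that list. Over all tested probe sets 1.41% passed, and the median was 0.03. The groups did not overlap in 0 of the 10 on the higher and 4 on the lower side, against 10.8% and 11.1% of all. An unadjusted p under 0.05 was found for 4, against 16.4% of all. Both counts of 4 are the Adi1 probe sets and that of Apip, so they come from these genes alone. On the same list, Mat2b (log2 difference -0.18), Ahcy (0.12) and the brighter Mtr probe set (0.02) had overlapping groups.

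The hypusine pathway attaches part of spermidine to the translation factor encoded by Eif5a. Over all tested probe sets, limma called 1.41%, and 16.4% had an unadjusted p under 0.05. Of the 8 hypusine probe sets, 0 were called and 1 had an unadjusted p under 0.05. That was the brighter probe set of Dohh, the gene of deoxyhypusine hydroxylase, at 109 ± 12.7 in deficient and 156 ± 19.4 in wild type muscle (SD, n = 3 each, log2 difference -0.46, adjusted p = 0.304). The dimmer one differed by 0.23. The list of other amine oxidases held Maoa, Maob, Kdm1a, Kdm1b, Aoc3 and Il4i1. Of its 9 probe sets, limma called 0, and 2 had an unadjusted p under 0.05, beside the same shares over all. The smallest p was that of a probe set that lists both Il4i1, the gene of a secreted amino acid oxidase, and Il4i1b, and so cannot be assigned to either. It was dim, with 40.3, 15 and 3.9 in the deficient libraries, against 65.4, 74.7 and 86.8 in the wild type libraries. The groups did not overlap, and the log2 difference of -1.48 did not pass (adjusted p = 0.0764), but passed without deficient replicate 1 (-1.88, adjusted p = 0.0269). The other Il4i1 probe set differed by -0.05, with overlapping groups. Maob, which encodes monoamine oxidase B, had 144.2, 135.7 and 71.4 in the deficient libraries, against 217.8, 242.6 and 262.5 in the wild type libraries. Its groups did not overlap (117 ± 39.8 in deficient and 241 ± 22.4 in wild type muscle, SD, n = 3 each, adjusted p = 0.0986).

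**Figure D4:**
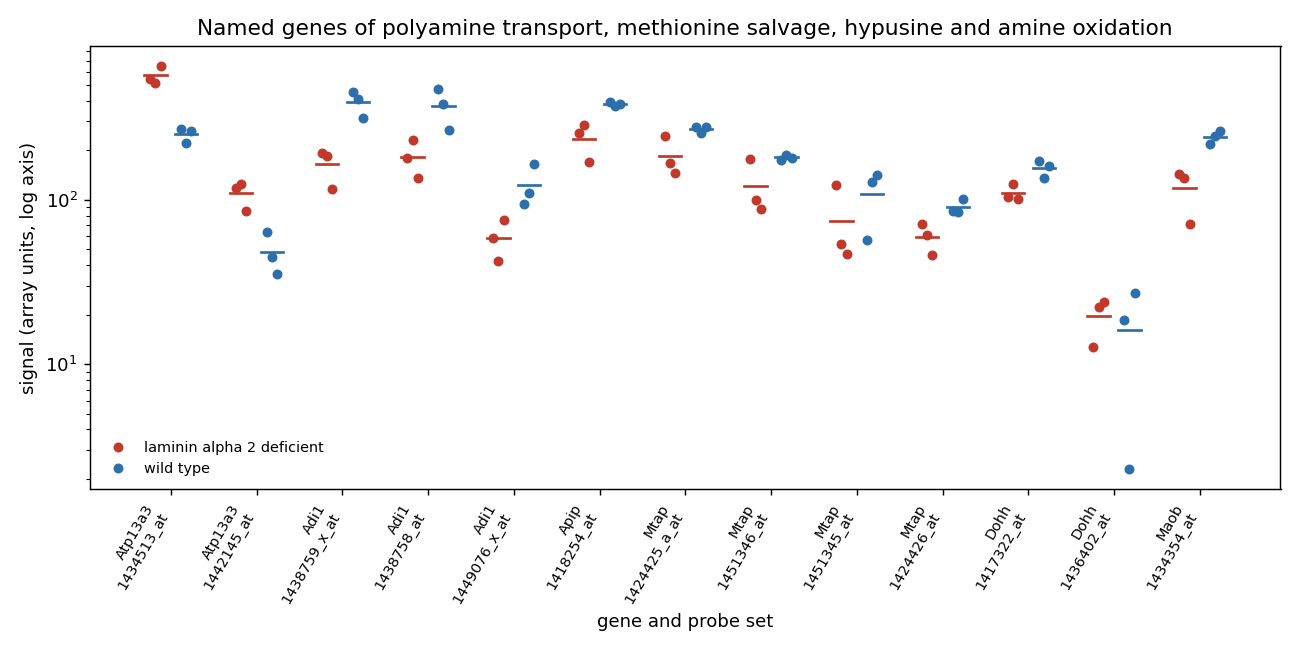
Signal (log axis) of the named probe sets of 1 symbol next to the polyamine pathway, with red points for deficient and blue points for wild type libraries and bars at the group means. The 2 Atp13a3 probe sets lie higher in deficient muscle, and the 3 Adi1 probe sets lie lower without overlap.

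The genes whose signal followed the bright Smox probe set most closely over the 6 libraries, by Pearson's r on the log2 scale, were Tdrp (0.994), Fitm1 (0.993), Emid1 (0.992), Usp10 (0.991) and Plaat1 (0.991). All 5 had lower values in deficient muscle without overlap, and 230 probe sets had an r over 0.95 with Smox, so these 5 are the top of a long list. Fitm1, which encodes a protein of lipid droplet formation, had 878.3, 960.5 and 799.5 in the deficient libraries, against 1905, 2108.3 and 1500.7 in the wild type libraries. Like Smox, all 5 genes were lowest in replicate 3 among the wild type libraries, which picking them by r with Smox favours. With 6 libraries in 2 groups, r mostly reflects the difference between the groups.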

How the data were processed

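Total RNA of hind limb muscle was extracted with TRIzol and RNeasy columns and labelled with biotin by the Affymetrix protocol, per the labels. What the authors deposited is 1 intensity for each probe set and array, on a linear scale. The algorithm that made it is not given in the sources used. Groups and replicate numbers came from the sample titles. All tests used log2(signal + 16). The mean signal without the top and bottom 2% was 100.001 in every array, so the deposited values were already scaled to a common level. Medians of the arrays differed by 0.226 at most on the log2 scale, under the limit of 0.5 set for centring. The arrays were therefore not rescaled again. Of 45101 probe sets, 64 were controls, and those with a mean below the 40th percentile (15 signal units) were left out. Each probe set was fitted on its own with limma 3.58.1 in R 4.3.3 (lmFit, eBayes with an intensity trend, two-sided) and the data.table package (version 1.17.8). P-values were adjusted by Benjamini-Hochberg over all 27026 tested probe sets, with a threshold of 0.05. Gene symbols came from GEO's platform annotation, updated by Entrez identifier to RefSeq, which matched 34754 of the 34945 probe sets with 1 symbol. Promoter sequences are from RefSeq (GRCm38.p6).

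The members and lists were chosen with earlier results of these data known. Named by rule were every member probe set, Lama2 and the 5 genes closest to Smox. So were related probe sets that passed or had the smallest p of their group, with other probe sets of their genes. In the amine oxidase group this was done with and without a probe set of several symbols. Apip, Mtap, Enoph1, Mri1, Slc7a2, Mat2b, Ahcy and Mtr lay outside this rule and were added after their values were seen. On 20 simulated data sets of 27026 probe sets with 200 changed, the fit found 27.6% of 2-fold and 95.2% of 4-fold changes, and 7.58% of its calls were unchanged probe sets. Alternatives were other scalings, pseudocounts, filters and priors, the brightest probe set per gene, blocks for replicate number and for Y-linked transcripts (called present at an Eif2s3y signal over 100), and libraries left out. Figures were drawn with matplotlib 3.10.9.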

Additional observations from a re-analysis of the deposited data

How the results depend on the processing

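Of the 1-symbol probe sets of genes other than Smox, 1 was called in the fit as reported. Under median centring, without an intensity trend and with wild type replicates 1 and 2 both left out it was 0, and with each library left out it ran from 0 to 1. Over the whole table, 381 probe sets were called. This was 223 with no filter, 76 without an intensity trend, 957 with the replicate block, 1258 with Y-linked transcripts as a block, 21 without wild type replicates 1 and 2, and 48 to 677 with each library left out. Fewer samples are part of the last 2 settings. Among related probe sets of 1 symbol, 2 were called. This was 1 under median centring, quantile normalization, a pseudocount of 1 and no filter, 0 without an intensity trend and without wild type replicates 1 and 2, 4 with the replicate block, 6 with Y-linked transcripts as a block, and 0 to 2 with each library left out. Same-numbered libraries had correlations of deviations from their group means of 0.133, -0.058 and 0.31 over tested probe sets, not all over 0.1, so the numbers were not taken as pairs, and not every library correlated best with its own number. Replicates 1 and 2 of both groups share the presence of Y-linked transcripts and replicates 3 their absence. Differences near 0 changed sign. With each library left out, the Odc1 probe sets ran from -0.22 to 0.16 and from -0.080 to 0.34, Srm from -0.032 to 0.64, the Azin1 probe sets from -0.47 to 0.13 and from -0.56 to 0.32, and the dimmer Dohh probe set from -0.13 to 0.49. The brightest Odc1 probe set was 0.048 under quantile normalization. Without wild type replicates 1 and 2, Odc1 came to 0.43 and 0.012 in 2 probe sets, Sms with its pseudogene to 0.081, Azin1 to 0.28 and 0.72, Oaz2 to 0.069 and Dohh to -0.29. None of these was called in any setting, and the cause of the changes was not tested. The bright Smox probe set stayed between -2.87 and -1.91 and Sat1 between 0.86 and 1.03 on the log2 scale under the alternatives run. With 3 libraries a group, many 2-fold changes were missed in simulation.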
